A study of Homo sapiens with 16 samples.

Results

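The comparison set SW620 cells carrying a short hairpin RNA that targets ATF4, a transcription factor (shATF4), beside SW620 cells with a scrambled hairpin, both after 24 h in 5 µM 5-fluorouracil (5-FU). SW620 is an established human colorectal cancer line, and 5-FU is a pyrimidine analogue used as chemotherapy. Members were chosen as the raw counts of the 3 shATF4 and 3 scramble libraries at 24 h, which are 6 of the 16 libraries of the series, over the 17309 of 58735 genes that passed a filter on low counts. The other 10 libraries are the same lines untreated, with 3 libraries each, and at 48 h in the same dose, with 2 each, and they served for the shared estimate of spread and for comparing the drug state with the others. The 4 libraries at 48 h carry a treatment tag that reads 24 h and were placed by their titles. Both lines carry a hairpin and both were given the drug, so the contrast holds the hairpin target alone as its labelled difference. With 1 hairpin line against 1 control line, an effect of ATF4 loss and any other difference between the lines cannot be told apart.

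ATF4 is the main effector of the integrated stress response. Kinases that sense amino acid shortage, viral RNA, haem shortage or unfolded protein in the endoplasmic reticulum phosphorylate the initiation factor eIF2, general translation falls, and the ATF4 transcript is translated more. ATF4 protein, often paired with C/EBP factors, then activates genes for amino acid synthesis and uptake, for charging of transfer RNA and for feedback on the response itself. The aim stated for the series concerns ATF4 and how colorectal cancer cells resist chemotherapy. The title names TNF-α and PERK, the kinase of the endoplasmic reticulum.

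The 24 h libraries held 14571611 to 17824188 counts. The labelled epithelial origin was checked against 10 markers, which were all detected and summed to 8899 to 9471 CPM (counts scaled to a common library size) in scramble and 10175 to 10843 CPM in shATF4 libraries. KRT8 alone had 4770 to 6152 CPM. LGALS4 had 0.207 to 0.947 CPM and did not pass the count filter. KRT20 (7.17 to 13.3 CPM), CDX2 (11.1 to 15.96 CPM) and CEACAM5 (14.2 to 18.7 CPM) were low too. KRT20 was lower in shATF4 cells (-0.56, adjusted p = 0.00927), while KRT8 and KRT18 were higher. Of the markers of other cell types, COL1A2, COL3A1 and DCN among 6 of fibroblasts and KDR among 5 of endothelium were at 0 in all 6 libraries. The other fibroblast markers were detected in every library, LUM at 27.2 to 38.96 CPM, COL1A1 at 13.2 to 21.9 CPM and PDGFRB at 5.24 to 9.77 CPM, and the class summed to 56.9 to 62.6 CPM in scramble and 56.3 to 60.4 CPM in shATF4 libraries. PDGFRB was lower in shATF4 cells (-0.66, adjusted p = 0.00607). The leukocyte class summed to 14.8 to 15.9 CPM in scramble and 10.2 to 16.1 CPM in shATF4 libraries, nearly all of it LYZ (10.1 to 15.7 CPM), and the endothelial class to 8.57 to 11.4 and 8.05 to 10.6 CPM. The third shATF4 library stood apart. Its counts differed from those of shATF4 replicates 1 and 2 by a chi-square per degree of freedom of 31.6 and 21.1, against 1.84 to 5.16 for the other pairs within a group at 24 h. In it the cytosolic ribosomal protein genes took 6.19% of counts, against 4.25% and 4.84% in shATF4 replicates 1 and 2 and 4.0004% to 4.06% in scramble libraries. RN7SL RNA, the RNA of the signal recognition particle, took 0.0726% of its counts, against 0.0241% and 0.0251% and, in scramble libraries, 0.00522% to 0.00713%. Values without this library are added where it stands furthest from its group. The labels do not say whether replicates came from separate cultures, and p-values then cover only how these libraries vary, possibly for technical reasons.

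ATF4 itself (chr22:39519695-39522685, plus strand, GRCh38) was read first, as a check of the labels. Its level was 270.1, 285 and 280.1 CPM in scramble replicates 1 to 3 and 91.1, 109 and 130.4 CPM in shATF4 replicates 1 to 3. Every shATF4 library lay below every scramble library, with the third shATF4 library the highest of its group. The fold was 2.53 (log2 change -1.34 ± 0.09, SE, 3 against 3 libraries, adjusted p = 2.7e-09, quasi-likelihood test of edgeR, Benjamini-Hochberg adjusted over 17309 genes, as for all adjusted p-values here). The same test gave -1.13 in untreated cells and -1.52 at 48 h, and the difference between 24 h and untreated did not pass (-0.21 ± 0.12, adjusted p = 0.374). Group means were 279 ± 7.77 CPM in scramble and 110.03 ± 19.7 CPM in shATF4 libraries (SD, n = 3 each).

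Across all genes tested, 3533 were called at an adjusted p under 0.05, which is 20.4%. Of these 1821 were higher in shATF4 cells (10.5% of genes tested) and 1712 lower (9.89%). These shares are the background for the counts of every gene list below. A change of at least 2-fold was seen in 203 of the genes called higher (1.17% of genes tested) and 216 of those called lower (1.25%). The 3 shATF4 libraries did not overlap the 3 scramble libraries in 6025 genes (34.8%), lying above in 3002 (17.3%) and below in 3023 (17.5%). In untreated cells the same comparison called 506 genes (2.92%), 187 higher (1.08%) and 319 lower (1.84%), and at 48 h 1636 (9.45%), 678 higher (3.92%) and 958 lower (5.53%). The count at 24 h was 2189 when only the 6 libraries at 24 h were fitted, 2067 without scramble replicate 1, 2127 without scramble replicate 3 and 3204 without shATF4 replicate 3. The authors' deposited table for this contrast has 947 genes higher and 1134 lower at an adjusted p under 0.05, of which 938 and 1126 were also called here in the same direction.

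**Figure D1:**
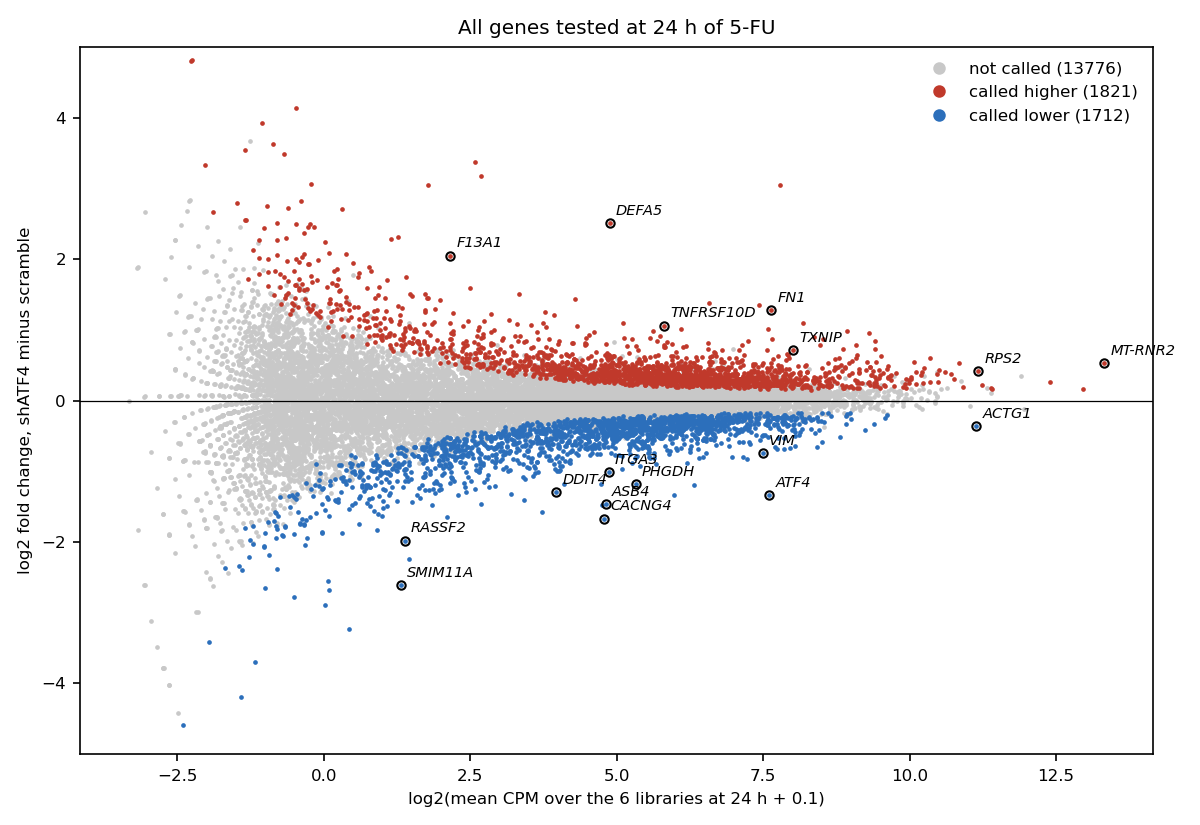
Each point is 1 of the 17309 genes tested, with log2 of its mean CPM over the 6 libraries at 24 h plus 0.1 on the horizontal axis and its log2 fold change on the vertical axis. Called genes are coloured, 1821 higher and 1712 lower. The genes circled include ATF4 at -1.34, FN1 at 1.28 and DEFA5 at 2.51.

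Factors and feedback genes of the integrated stress response were lower more often than higher. Of 17 measured and tested, 5 fell and 2 rose, beside 9.89% and 10.5% of all genes tested. The median log2 change was -0.14 beside 0.01 over all genes tested. CHAC1, which degrades glutathione and is a textbook ATF4 target, had 8.28, 8.74 and 8.05 CPM in scramble and 5.43, 4.42 and 3.78 CPM in shATF4 libraries. The groups did not overlap and the change was -0.88 ± 0.16 (adjusted p = 0.000673). VLDLR, a lipoprotein receptor induced by ATF4, went from 6.21, 5.85 and 7.10 to 3.56, 3.73 and 3.73 CPM (-0.80 ± 0.15, adjusted p = 0.000911), again without overlap. TRIB3, a pseudokinase that binds ATF4 and damps the response, was the most abundant of the members that fell and are named here. It had 94.5, 106 and 97.7 CPM in scramble and 76.3, 81.3 and 65.9 CPM in shATF4 libraries (-0.42 ± 0.08, adjusted p = 0.00163). CARS2, the mitochondrial cysteinyl-tRNA synthetase, rose (0.34 ± 0.07, adjusted p = 0.00141). DDIT3, which encodes the death-linked factor CHOP, had 7.07, 8.61 and 7.64 CPM in scramble and 8.23, 9.12 and 11.5 CPM in shATF4 libraries and did not pass (0.31 ± 0.14, adjusted p = 0.112). The count of 2 rises was 1 without scramble replicate 1 or 3. At 48 h DDIT3 was lower (-0.81, adjusted p = 0.00182), and the difference between 48 h and 24 h passed (-1.12, adjusted p = 0.00204).

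Genes that act upstream of ATF4 were read too. Of 16 genes for eIF2 kinases and the eIF2 and eIF2B complexes 1 was called, beside 20.4% of all genes tested. It was DELE1, which relays mitochondrial stress to the kinase HRI. DELE1 had 56.1, 54.4 and 53.3 CPM in scramble and 36.6, 34.2 and 40.2 CPM in shATF4 libraries, without overlap (-0.56 ± 0.07, adjusted p = 3.31e-05). The PERK gene EIF2AK3, which the title of the series names, had 18.3, 16.1 and 17.2 against 15.2, 14.7 and 13.5 CPM. Those groups did not overlap either, but the change of -0.25 ± 0.13 did not pass (adjusted p = 0.169). EIF2AK1, which encodes HRI, stood at -0.16 ± 0.06 (adjusted p = 0.064) and EIF2AK2, the kinase of double-stranded RNA, at 0.17 ± 0.08 (adjusted p = 0.163). Without shATF4 replicate 1 or 3 the list had 2 genes lower and 1 higher.

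Chaperones and other unfolded protein response genes of the endoplasmic reticulum showed 4 members higher and 1 lower of 24. The shares over all genes tested were 10.5% and 9.89%. The median of the list was 0.05. CRELD2, a secreted chaperone-like protein, had 65.5, 63.4 and 61.2 CPM in scramble and 78.3, 80.8 and 77.7 CPM in shATF4 libraries (0.32 ± 0.08, adjusted p = 0.00713), a gene not called without scramble replicate 3 (adjusted p = 0.0508). The count of 4 fell to 1 without scramble replicate 1 or 3 and to 2 without shATF4 replicate 3.

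**Figure D2:**
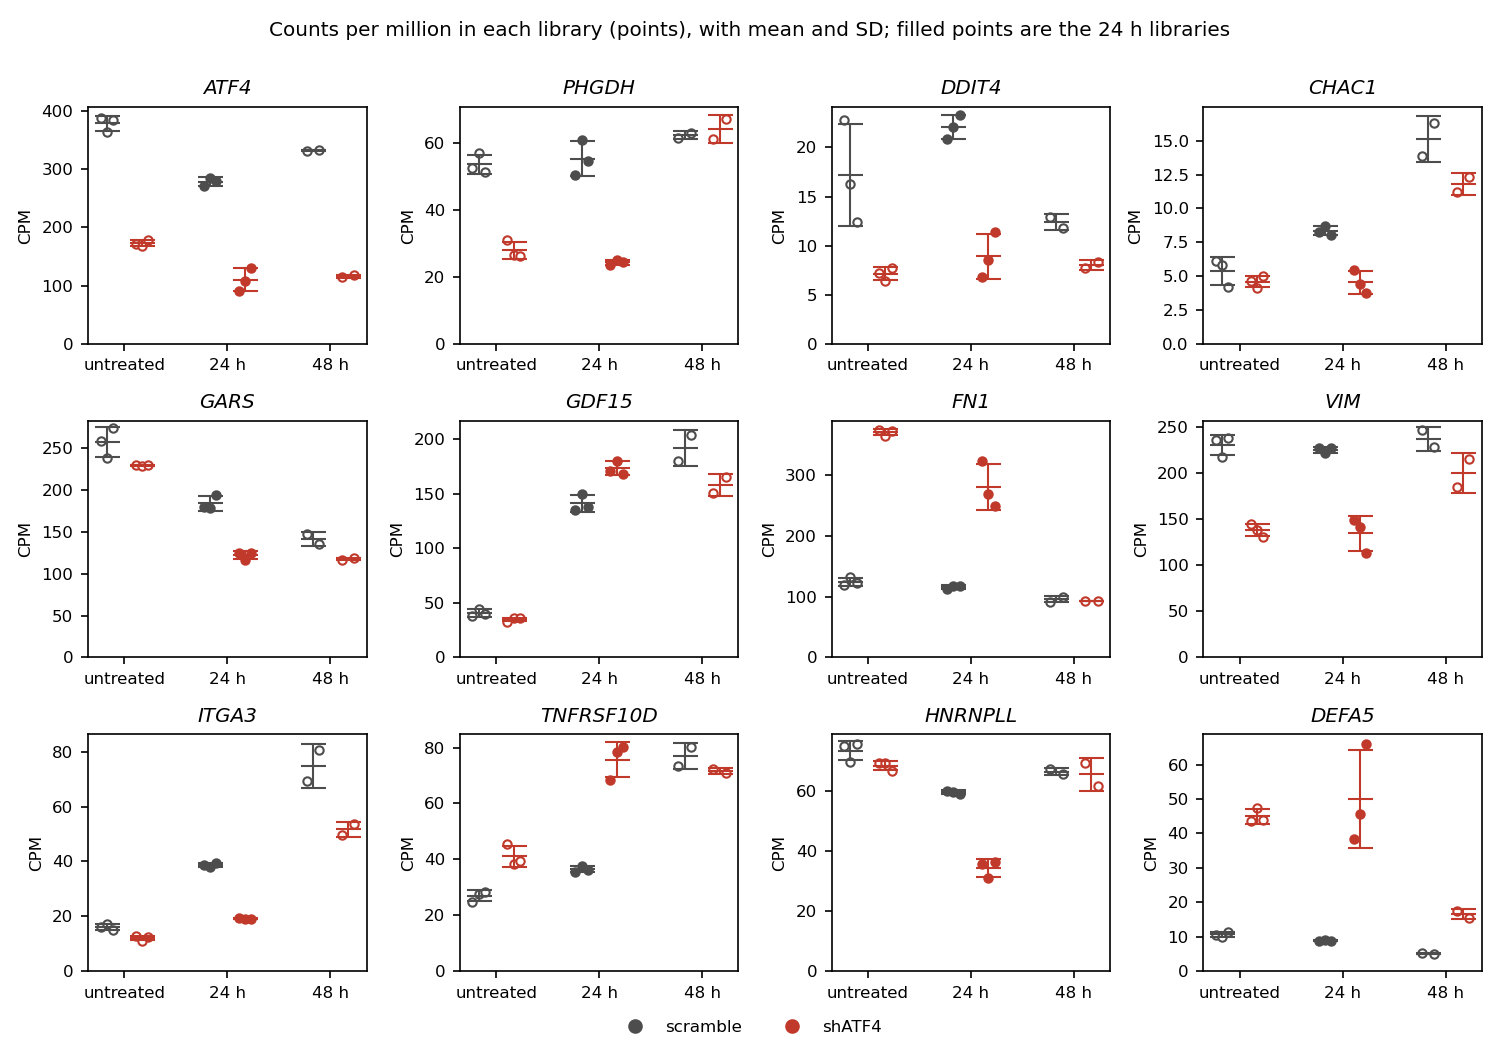
CPM of 12 genes in every library, scramble in grey and shATF4 in red, with the mean and SD of each group. At 24 h the groups do not overlap for any of these genes, ATF4, PHGDH, DDIT4, CHAC1, GARS, VIM, ITGA3 and HNRNPLL being lower and GDF15, FN1, TNFRSF10D and DEFA5 higher in shATF4 libraries.

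Among enzymes of serine synthesis and folate one-carbon metabolism, which feed thymidylate and purine synthesis, 3 of 15 were called, all lower. Over all genes tested 9.89% were called lower. The median of the list was -0.06. PHGDH (chr1:119648411-119744226, plus strand) catalyses the committed step of serine synthesis. It had 50.4, 60.8 and 54.8 CPM in scramble and 23.6, 25.1 and 24.3 CPM in shATF4 libraries. The groups lay far apart and the shATF4 values were close together. The fold was 2.27 (-1.18 ± 0.09, adjusted p = 2.01e-08). MTHFD1L, the mitochondrial formate-releasing enzyme, went from 112, 107 and 118 to 88.8, 82.2 and 75.8 CPM (-0.45 ± 0.07, adjusted p = 0.000119), without overlap. PSAT1, the enzyme after PHGDH, stood at -0.25 ± 0.08 (adjusted p = 0.0335), a gene not called without scramble replicate 1 (0.0926), scramble replicate 3 (0.0746), shATF4 replicate 1 (0.0638) or shATF4 replicate 2 (0.117). MTHFD1, the cytosolic trifunctional enzyme, did not pass (-0.15 ± 0.06, adjusted p = 0.0653).

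The C/EBP-ATF response element, a composite site for ATF4 with a C/EBP partner, was searched in promoter windows as the letters TGATGNAA on both strands. Of 54 named genes that were called lower and have a promoter in the RefSeq table (GRCh38.p14, matched by gene identifier or symbol), 4 held it. They are shown because they are the genes named here that both fell at 24 h and carry these letters. The letters are in capitals, the start of the transcript lies 50 bases before the end of each sequence, and lower case is the rest of the window.
MTHFD1L (chr6:150866236-150866535, plus strand): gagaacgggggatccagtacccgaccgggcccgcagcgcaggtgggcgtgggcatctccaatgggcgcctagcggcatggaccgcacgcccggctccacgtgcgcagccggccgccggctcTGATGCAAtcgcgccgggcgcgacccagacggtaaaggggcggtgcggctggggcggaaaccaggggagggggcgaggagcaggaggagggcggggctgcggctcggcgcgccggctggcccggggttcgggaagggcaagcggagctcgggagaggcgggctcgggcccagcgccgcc
CHAC1 (chr15:40953221-40953520, plus strand): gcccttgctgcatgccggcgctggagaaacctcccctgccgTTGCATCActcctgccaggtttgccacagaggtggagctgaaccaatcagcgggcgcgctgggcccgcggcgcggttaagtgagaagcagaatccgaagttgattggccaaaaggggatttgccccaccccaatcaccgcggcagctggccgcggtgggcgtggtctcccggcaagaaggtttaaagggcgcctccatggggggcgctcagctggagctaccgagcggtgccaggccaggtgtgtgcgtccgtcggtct
HERPUD1 (chr16:56931892-56932191, plus strand): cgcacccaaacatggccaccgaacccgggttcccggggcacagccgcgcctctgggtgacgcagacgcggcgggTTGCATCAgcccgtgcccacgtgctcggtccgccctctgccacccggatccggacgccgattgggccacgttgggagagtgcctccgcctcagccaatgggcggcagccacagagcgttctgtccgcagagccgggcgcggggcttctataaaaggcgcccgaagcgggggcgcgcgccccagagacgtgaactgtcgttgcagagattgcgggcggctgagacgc
ABCG2 (chr4:88231577-88231876, minus strand): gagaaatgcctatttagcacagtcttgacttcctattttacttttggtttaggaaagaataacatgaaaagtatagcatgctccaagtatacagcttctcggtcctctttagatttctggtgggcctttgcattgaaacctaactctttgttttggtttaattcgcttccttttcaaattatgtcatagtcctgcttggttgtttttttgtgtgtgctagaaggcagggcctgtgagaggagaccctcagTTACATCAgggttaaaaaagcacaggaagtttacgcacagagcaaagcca
The letters begin 129 bases before the start in MTHFD1L, where they read in the direction of the gene. In the other 3 they read on the opposite strand, 209 bases before the start in CHAC1, 176 in HERPUD1 and at the start itself in ABCG2. Over all genes, the letters were in 23 of 1263 promoters of genes called lower (1.82%), in 18 of 1312 of genes called higher (1.37%) and in 191 of 11322 of all genes tested (1.69%). The share among genes called lower was close to that of all genes tested. HERPUD1, which serves degradation of endoplasmic reticulum proteins, stood at -0.29 ± 0.08 (adjusted p = 0.0207), a gene not called without scramble replicate 2 (0.0613) or 3 (0.0508). ABCG2, a drug efflux pump, was near 1 CPM and stood at -1.47 ± 0.44 (adjusted p = 0.0228), not called without scramble replicate 3 (0.126) or shATF4 replicate 3 (0.0757).

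Transfer RNA synthetases of the cytosol, several of which are ATF4 targets, fell in 6 of 20 cases and rose in 2, with a median of -0.08. GARS, for glycine, had 179, 179 and 194 CPM in scramble and 125, 116 and 125 CPM in shATF4 libraries. CARS, for cysteine, had 108, 107 and 103 against 71.1, 70.8 and 74.5 CPM. For both genes every shATF4 library was below every scramble library, with changes of -0.59 ± 0.07 (adjusted p = 5.35e-06) and -0.55 ± 0.06 (adjusted p = 9.45e-06). In untreated cells they stood at -0.16 and -0.14, and the difference from that state passed for GARS (-0.43, adjusted p = 0.0225) and CARS (-0.41, adjusted p = 0.0237). These differences were not robust to leaving out libraries. That of GARS was lost without scramble untreated replicate 1, scramble 24 h replicate 3, shATF4 untreated replicate 1 or 2, or shATF4 24 h replicate 2 (adjusted p up to 0.0666). That of CARS was lost without scramble untreated replicate 1, scramble 24 h replicate 1, any 1 of the shATF4 untreated libraries, or shATF4 24 h replicate 2 (up to 0.0675). IARS, for isoleucine, fell as well (-0.28 ± 0.06, adjusted p = 0.00427). The 2 rises were lost when any 1 of the 3 scramble libraries was left out, and 1 of them when any 1 shATF4 library was.

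Enzymes for asparagine, proline and sulphur amino acids split, 3 of 14 higher and 3 lower, beside 10.5% and 9.89% of all genes tested. The median was 0.02. PYCR1, the last enzyme of proline synthesis, was higher, with 175, 209.9 and 182 CPM in scramble and 243, 278 and 258 CPM in shATF4 libraries (0.46 ± 0.08, adjusted p = 0.000525). ALDH18A1, the entry enzyme of the same pathway, also rose (0.25 ± 0.06, adjusted p = 0.0033), and so did GLUL, glutamine synthetase (0.26 ± 0.06, adjusted p = 0.00423). OAT, which links ornithine to proline, fell (-0.29 ± 0.06, adjusted p = 0.00259). The classical ATF4 target ASNS, asparagine synthetase, had very few counts. Its values were 0.517, 0.566 and 0.474 CPM in scramble and 0.437, 0.484 and 0.233 CPM in shATF4 libraries. Its change of -0.44 ± 0.44 did not pass (adjusted p = 0.516). Whether these counts reflect its expression, or reads shared with an overlapping gene were left uncounted, was not tested.

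Of 17 amino acid transporters 3 rose and 2 fell, beside 10.5% and 9.89% of all genes tested, with a median of -0.03. SLC36A1, a lysosomal exporter of small amino acids, had 22.1, 18.8 and 20.6 CPM in scramble and 38.5, 35.1 and 33.5 CPM in shATF4 libraries (0.80 ± 0.09, adjusted p = 6.89e-06). SLC3A2, the heavy chain shared by several exchangers, rose from 469, 513 and 483 to 592, 673 and 654 CPM (0.39 ± 0.06, adjusted p = 0.000169), and SLC7A6, a partner of it, rose by 0.38 (adjusted p = 0.00118). SLC1A4, a carrier of alanine, serine and cysteine, was the transporter with the clearest fall among those named, from 21.2, 20.2 and 23.3 to 17.2, 13.5 and 12.6 CPM (-0.58 ± 0.12, adjusted p = 0.00202). The count of 2 lower was 4 without shATF4 replicate 1 and 1 without scramble replicate 1 or shATF4 replicate 2.

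Secreted stress hormones gave the lowest median of the 38 lists, -0.31, with 4 of 8 tested members lower and 1 higher. INHBE, an activin subunit of liver and stressed cells, had 3.45, 3.08 and 3.49 CPM in scramble and 1.62, 0.553 and 1.51 CPM in shATF4 libraries (-1.42 ± 0.28, adjusted p = 0.00129). ADM2, a peptide of the calcitonin family, had 4.94, 3.90 and 3.73 against 2.12, 1.17 and 1.63 CPM (-1.34 ± 0.26, adjusted p = 0.00103). Both groups were apart in each case, although the shATF4 levels themselves spread widely. GDF15, the stress cytokine that suppresses appetite, went the other way. Its levels were 135, 150.2 and 138 CPM in scramble and 171, 180.4 and 168 CPM in shATF4 libraries (0.29 ± 0.07, adjusted p = 0.00864), a gene not called without scramble replicate 1 (0.0671) or 3 (0.0541). Without scramble replicate 3, shATF4 replicate 1 or shATF4 replicate 2 the count of 4 lower was 2.

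Brakes on the growth kinase mTORC1 also split, 3 of 12 higher and 3 lower, beside 10.5% and 9.89% of all genes tested, with a median of -0.08. DDIT4 (chr10:72273920-72276036, plus strand), a stress-induced inhibitor of mTORC1, had 20.8, 22.1 and 23.3 CPM in scramble and 6.86, 8.50 and 11.4 CPM in shATF4 libraries. The groups did not overlap and the fold was 2.46 (-1.30 ± 0.18, adjusted p = 4.33e-05). DEPDC5, a subunit of the GATOR1 complex that reports amino acid shortage, fell from 21.3, 21.9 and 19.5 to 13.2, 12.2 and 14.8 CPM (-0.64 ± 0.10, adjusted p = 0.000232). TXNIP, a thioredoxin-binding protein that curbs glucose uptake, rose from 197, 186 and 202 to 300.2, 315 and 344 CPM (0.71 ± 0.07, adjusted p = 1.32e-06). SESN3, a sestrin, rose by 0.42 (adjusted p = 0.00135). Of the 3 rises 1 was lost without any 1 library other than shATF4 replicate 3. Of the 3 falls 1 was lost without scramble replicate 1, scramble replicate 2, shATF4 replicate 2 or shATF4 replicate 3.

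**Figure D3:**
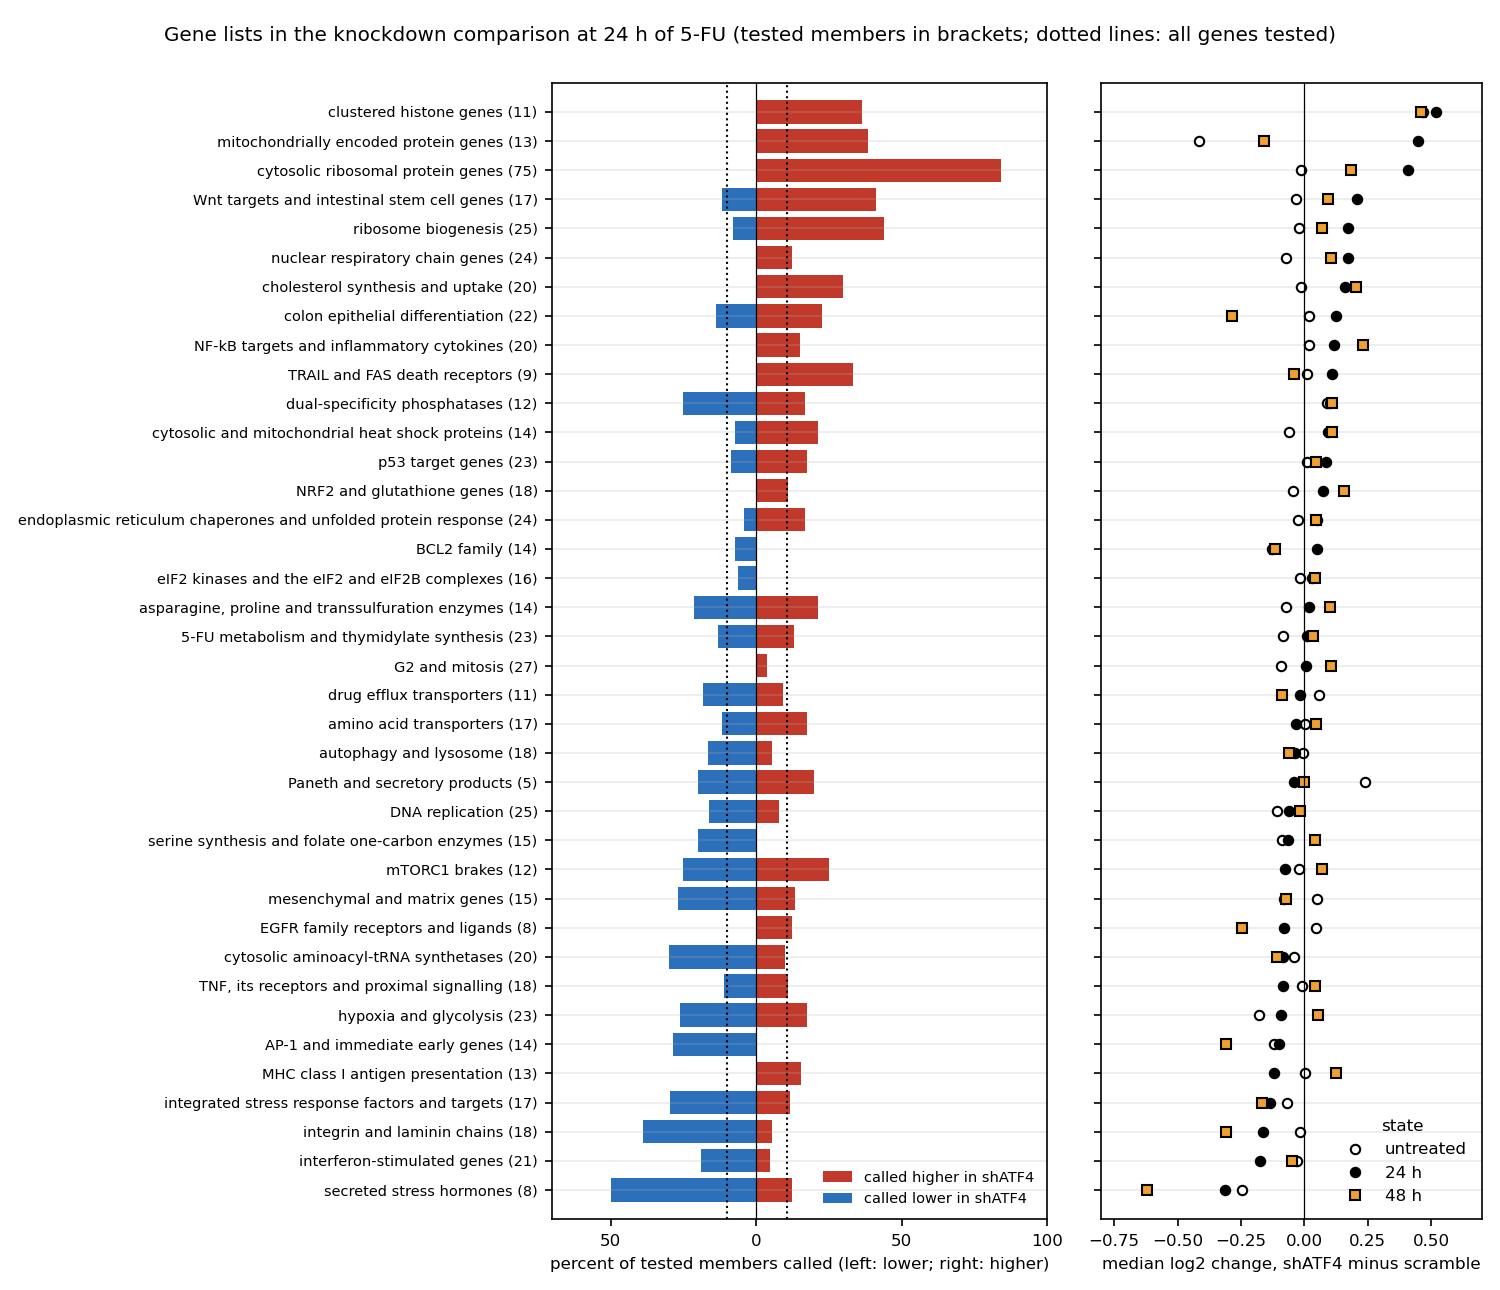
Left, the percent of tested members of each of the 38 gene lists called higher (red, to the right) or lower (blue, to the left) at 24 h, with dotted lines at the values over all genes tested (10.5 and 9.89). Right, the median log2 change of each list in untreated cells, at 24 h and at 48 h. Ribosomal protein genes, with 63 of 75 higher, lie furthest from the dotted lines, and secreted stress hormones have the lowest median at 24 h.

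Genes of the drug's own pathway were read as well. 5-FU is activated by enzymes of pyrimidine salvage and its metabolite blocks thymidylate synthase. TYMS, the gene of that target, had 58.99, 62.9 and 57.3 CPM in scramble and 54.96, 61.9 and 55.6 CPM in shATF4 libraries. These ranges overlap and the change of -0.06 ± 0.07 did not pass (adjusted p = 0.646). Of 23 genes of 5-FU metabolism and thymidylate synthesis 3 rose and 3 fell, beside 10.5% and 9.89% of all genes tested, with a median of 0.01. UMPS, which adds the ribose phosphate to 5-FU, had 89.98, 86.9 and 86.3 CPM in scramble and 104, 107 and 129.9 CPM in shATF4 libraries (0.37 ± 0.08, adjusted p = 0.00322). UPP1, uridine phosphorylase, was lower, with 99.1, 99.9 and 107 against 83.3, 79.96 and 77.6 CPM (-0.35 ± 0.07, adjusted p = 0.00161). DUT, the hydrolase that keeps uracil out of DNA, fell (-0.32 ± 0.08, adjusted p = 0.00951), and SMUG1, a glycosylase that removes uracil and 5-FU from DNA, rose (0.36 ± 0.08, adjusted p = 0.00472). Without shATF4 replicate 3 the count of members lower was 5. Of the 3 rises 2 were kept without any 1 library other than shATF4 replicate 1. Of the 3 falls 2 were kept without scramble replicate 1, scramble replicate 2 or shATF4 replicate 1.

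In the DNA damage response, CDKN1A, which encodes the cell cycle inhibitor p21, had 18.4, 20.4 and 21.1 CPM in scramble and 15.7, 18.4 and 18.3 CPM in shATF4 libraries, and its change of -0.19 ± 0.14 did not pass (adjusted p = 0.33). Of 23 p53 target genes 4 rose and 2 fell, beside 10.5% and 9.89% of all genes tested, with a median of 0.08. MDM2, which degrades p53, had 47.5, 33.6 and 45.1 against 66.4, 62.1 and 55.2 CPM (0.54 ± 0.11, adjusted p = 0.00191), and its shATF4 libraries all lay above those of scramble. DDB2, a recognition factor for ultraviolet damage, fell from 66.8, 66.4 and 64.4 to 49.2, 51.9 and 56.4 CPM (-0.33 ± 0.07, adjusted p = 0.00286). The count of p53 targets higher was 2 without scramble replicate 1, scramble replicate 3 or shATF4 replicate 2, and that of targets lower was 1 without scramble replicate 1 or 3.

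Among 25 DNA replication genes 4 fell and 2 rose, beside 9.89% and 10.5% of all genes tested, with a median of -0.06. POLA1, the catalytic subunit of the primase-associated polymerase, had 204, 207 and 207 CPM in scramble and 152, 137 and 132 CPM in shATF4 libraries. The 3 shATF4 values lay below all scramble values (-0.56 ± 0.07, adjusted p = 1.29e-05). MCM3, part of the replicative helicase, fell from 533, 537 and 532 to 420.2, 402 and 457 CPM (-0.33 ± 0.06, adjusted p = 0.000678), while GINS3, another helicase component, rose from 31.2, 34.4 and 32.9 to 41.9, 48.03 and 47.9 CPM (0.49 ± 0.08, adjusted p = 0.000333). Leaving out single libraries moved the 4 lower to 2 (scramble replicate 1 or 2, shATF4 replicate 2), and the 2 higher to 1 (each scramble replicate, shATF4 replicate 3) or 4 (shATF4 replicate 1). Of 27 genes of G2 and mitosis 1 was called, against 20.4% of all genes. That gene, UBE2C, a ubiquitin-conjugating enzyme of mitotic exit, stood at 0.25 ± 0.07 (adjusted p = 0.0115) and was lost without scramble replicate 1 (0.075), while 3 genes passed without shATF4 replicate 3. The mitotic kinase gene CDK1 stood at -0.16 ± 0.08 (adjusted p = 0.148) and the checkpoint kinase gene BUB1B at -0.18 ± 0.08 (adjusted p = 0.0932).

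TNF, the cytokine in the title of the series, was near the limit of detection, with 0.805, 0.88 and 0.829 CPM in scramble and 0.811, 1.52 and 0.757 CPM in shATF4 libraries. The ranges overlap, the highest value was in shATF4 replicate 2, and no difference was detectable at this depth (0.28 ± 0.45, adjusted p = 0.713). Without shATF4 replicate 2 the change was -0.09. Of 18 genes for TNF, its receptors and proximal signalling 2 rose and 2 fell, beside 10.5% and 9.89% of all genes tested. The median was -0.08. MAP3K7, which encodes TAK1, the kinase that passes the signal to NF-κB, had 68.8, 63.5 and 63.2 CPM in scramble and 46.3, 42.02 and 47.9 CPM in shATF4 libraries, without overlap (-0.52 ± 0.08, adjusted p = 0.000146). The other calls were CASP8 (0.31), an initiator caspase, TNFAIP3 (0.28), which ends the signal, and TNFRSF1A (-0.21), the main receptor. CASP8 was lost without scramble replicate 2 (0.107), scramble replicate 3 (0.0955) or shATF4 replicate 3 (0.0548), and TNFAIP3 without scramble replicate 2 (0.0939), scramble replicate 3 (0.138) or shATF4 replicate 2 (0.0889). TNFRSF1A was lost without any 1 library other than shATF4 replicate 1, with adjusted p-values of 0.0507 to 0.172.

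Of 20 NF-κB targets and inflammatory cytokines 3 were called, all higher, beside 10.5% of all genes tested called higher, with a median of 0.12. CXCL3, a chemokine for neutrophils, had 10.004, 12.1 and 12.7 CPM in scramble and 17.6, 19.6 and 24.7 CPM in shATF4 libraries (0.84 ± 0.14, adjusted p = 0.000436). CCL20, a chemokine for dendritic cells and lymphocytes, had 52.6, 42.05 and 48.2 against 61.1, 69.1 and 91.8 CPM (0.64 ± 0.11, adjusted p = 0.000662). In both genes the third shATF4 library was the highest and the groups did not overlap. Without it the changes were 0.68 for CXCL3 and 0.45 for CCL20. The third call, NFKBIA (adjusted p = 0.0458), was lost without any 1 library other than shATF4 replicate 1 (0.058 to 0.184).

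Of 9 genes of the TRAIL and FAS death receptor pathways 3 were called, all higher, beside 10.5% of all genes tested called higher, with a median of 0.11. TNFRSF10D, a decoy receptor that lacks a working death domain, had 35.5, 37.5 and 36.1 CPM in scramble and 68.6, 78.4 and 80.2 CPM in shATF4 libraries. The fold was 2.08 (1.06 ± 0.08, adjusted p = 5.27e-08), with no overlap. TNFRSF10B, the death receptor DR5, had 99.2, 95.6 and 92.95 against 115, 121 and 130.5 CPM (0.35 ± 0.06, adjusted p = 0.000907). The third call, TNFSF10 (adjusted p = 0.035), was lost without any 1 library other than shATF4 replicate 1 (0.0616 to 0.186). TNFRSF10A, the death receptor DR4, did not pass (0.11 ± 0.08, adjusted p = 0.343). In the BCL2 family, which decides whether mitochondria release cytochrome c, 1 of 14 was called, beside 20.4% of all genes tested. That gene, PMAIP1 (NOXA), stood at -0.31 ± 0.09 (adjusted p = 0.0184) and was lost without scramble replicate 1 (0.0703), scramble replicate 3 (0.0537) or shATF4 replicate 2 (0.0509). MCL1 stood at -0.08 ± 0.06 (adjusted p = 0.36).

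Interferon-stimulated genes had 4 of 21 lower and 1 higher, with a median of -0.17. OAS3, which makes the second messenger that activates RNase L, had 131, 133 and 132 CPM in scramble and 97.1, 82.03 and 81.8 CPM in shATF4 libraries (-0.60 ± 0.07, adjusted p = 1.07e-05), without overlap. The count of 4 fell to 1 without scramble replicate 3 and to 2 without scramble replicate 1 or shATF4 replicate 2, and the single rise was lost without scramble replicate 1, scramble replicate 3 or shATF4 replicate 3. Of 13 genes of MHC class I antigen presentation 2 were called, both higher, beside 10.5% of all genes tested called higher. The median was nevertheless -0.12, and the count was 1 without scramble replicate 1 or 3. TAPBP, which encodes tapasin, had 64.7, 67.2 and 61.6 CPM in scramble and 113, 111 and 73.4 CPM in shATF4 libraries (0.62 ± 0.12, adjusted p = 0.0011), where the third shATF4 library lay well below its group, and the change was 0.80 without it. B2M, the light chain, did not pass (0.27 ± 0.11, adjusted p = 0.0782), with 541 CPM in the third shATF4 library against 342 to 388 CPM in the other 5.

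Matrix genes moved both ways. FN1 (chr2:215360440-215436172, minus strand) encodes fibronectin and had 112, 117 and 118 CPM in scramble and 323, 269 and 249 CPM in shATF4 libraries. All shATF4 libraries stood above all scramble libraries, by 2.42-fold (1.28 ± 0.08, adjusted p = 1.46e-09). VIM, vimentin, had 227, 222 and 228 CPM in scramble and 149, 142 and 113 CPM in shATF4 libraries (-0.74 ± 0.09, adjusted p = 8.01e-06), the opposite direction. MMP7, matrilysin, rose (0.81 ± 0.13, adjusted p = 0.000174) and MMP14, a membrane-bound collagenase, fell (-0.64 ± 0.11, adjusted p = 0.000522). Over 15 mesenchymal and matrix genes the counts were 2 higher and 4 lower, beside 10.5% and 9.89% of all genes tested. The median was -0.08.

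Integrin and laminin chains, the cell's receptors for and components of basement membrane, fell in 7 of 18 cases and rose in 1, with a median of -0.16 (-0.09 without shATF4 replicate 3). ITGA3 (chr17:50055968-50090481, plus strand), the laminin-binding α3 chain, had 38.9, 37.8 and 39.4 CPM in scramble and 19.3, 19.1 and 18.9 CPM in shATF4 libraries. Replicates were close together within each group, and the fold between groups was 2.02 (-1.02 ± 0.09, adjusted p = 1.32e-07). ITGB1, the shared β1 chain, fell from 319, 299.6 and 308 to 207, 204 and 243 CPM (-0.50 ± 0.08, adjusted p = 0.000177). ITGB4, the hemidesmosome chain, had 391, 453 and 419 against 305, 284 and 209 CPM (-0.66 ± 0.11, adjusted p = 0.000359), lowest in shATF4 replicate 3 (-0.51 without it). LAMB1, a laminin chain, fell too (-0.35 ± 0.07, adjusted p = 0.000809). Of the 7 falls 5 were kept without scramble replicate 1, scramble replicate 3, shATF4 replicate 2 or shATF4 replicate 3, and 6 without scramble replicate 2. The single rise was lost when any 1 library other than shATF4 replicate 3 was left out.

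Colon differentiation genes had 5 of 22 higher and 3 lower, with a median of 0.13, and the count higher was 1 when scramble replicate 1 was left out and 2 without scramble replicate 3. TFF3, the goblet cell trefoil peptide, rose from 46.8, 49.6 and 47.01 to 52.1, 65.9 and 79.3 CPM (0.46 ± 0.11, adjusted p = 0.00545, and 0.30 without shATF4 replicate 3). CEACAM1, an adhesion molecule, fell (-0.50 ± 0.10, adjusted p = 0.00155), as did CLDN3, a tight junction claudin (-0.67 ± 0.15, adjusted p = 0.00452). DEFA5, an antimicrobial peptide of Paneth cells, had 8.80, 8.93 and 8.58 CPM in scramble and 38.2, 45.6 and 65.9 CPM in shATF4 libraries. It showed the largest rise among the named protein-coding genes that average at least 1 CPM, 5.70-fold (2.51 ± 0.15, adjusted p = 9.8e-10). Another Paneth product, the phospholipase gene PLA2G2A, stood at -1.15 ± 0.32 (adjusted p = 0.0145), a gene not called without scramble replicate 1 (0.0534) or 3 (0.0527).

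Wnt target and intestinal stem cell genes rose in 7 of 17 cases and fell in 2, with a median of 0.21. PROM1, the stem cell marker CD133, had 36.3, 32.2 and 31.6 CPM in scramble and 60.8, 60.7 and 63.4 CPM in shATF4 libraries (0.88 ± 0.10, adjusted p = 4.17e-06). ZNRF3, a ubiquitin ligase that removes Wnt receptors, had 142, 151 and 141 against 208, 202 and 163 CPM (0.40 ± 0.08, adjusted p = 0.000988), and BMP4, a differentiation signal, had 288, 304 and 288 against 328, 375 and 403 CPM (0.33 ± 0.07, adjusted p = 0.00338). In each of the 3 the groups did not overlap. SMOC2, a matrix protein of crypt base cells, fell (-0.52 ± 0.07, adjusted p = 5.89e-05). The count of 7 was 4 without scramble replicate 1, scramble replicate 3 or shATF4 replicate 2, and the count of 2 lower was 1 without any 1 of the libraries other than shATF4 replicate 1.

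Growth factor signalling genes were read next. Of 8 EGFR family genes tested 1 was called, beside 20.4% of all genes tested. It was the ligand gene EREG (0.45 ± 0.14, adjusted p = 0.0245), not called without scramble replicate 1 (0.0561), scramble replicate 2 (0.146) or shATF4 replicate 2 (0.105). Of 14 AP-1 and immediate early genes 4 were called, all lower, with a median of -0.10. FOSL2, an AP-1 subunit, had 56.4, 59.5 and 55.9 CPM in scramble and 42.98, 41.2 and 38.2 CPM in shATF4 libraries (-0.49 ± 0.09, adjusted p = 0.000503). The zinc finger factor gene KLF2 fell from 16.04, 15.5 and 13.03 to 10.4, 8.98 and 5.18 CPM (-0.87 ± 0.18, adjusted p = 0.00254), lowest in shATF4 replicate 3 (-0.62 without it). Of 12 dual-specificity phosphatases, which switch off MAP kinases, 2 rose and 3 fell, beside 10.5% and 9.89% of all genes tested. Of the 3 falls 1 was lost without any 1 library other than scramble replicate 2. DUSP5 fell from 36.3, 38.3 and 40.1 to 27.7, 23.2 and 27.6 CPM (-0.55 ± 0.08, adjusted p = 0.000145). DUSP8 had 2.70, 2.26 and 3.08 CPM in scramble and 8.80, 7.26 and 3.03 CPM in shATF4 libraries (1.23 ± 0.30, adjusted p = 0.00667), where shATF4 replicate 3 lay within the scramble range and the change without it was 1.58.

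Ribosomal protein genes were the list with the highest share of calls. Of 75 genes 63 were called, all higher, with a median of 0.41. The list's median against the scramble mean was 0.11, 0.31 and 0.69 in shATF4 replicates 1, 2 and 3. The library that stood apart was thus the highest. Without it 39 were called higher and the median was 0.22, and with only the 6 libraries at 24 h in the fit 19 were called. Leaving out scramble replicate 1 or 2 gave 40. RPS2 had 1885, 2084 and 1930.0 CPM in scramble and 2367, 2739.5 and 2778 CPM in shATF4 libraries (0.42 ± 0.06, adjusted p = 0.000131), and RPL13A had 1013, 1062 and 994 against 1228, 1412 and 1577 CPM (0.46 ± 0.07, adjusted p = 0.000112). RPL12 had 258, 259.9 and 261 CPM in scramble and 354, 396 and 595 CPM in shATF4 libraries (0.79 ± 0.12, adjusted p = 0.000119). In all 3 genes the groups were apart also in replicates 1 and 2. Without the third shATF4 library the changes were 0.38 for RPS2, 0.37 for RPL13A and 0.53 for RPL12. Ribosomal protein genes have many processed pseudogenes that can share their reads, so single members are uncertain.

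Ribosome biogenesis genes rose in 11 of 25 cases and fell in 2, with a median of 0.17, which was 0.15 without shATF4 replicate 3. DKC1, the pseudouridine synthase of ribosomal RNA, had 223, 223 and 231 CPM in scramble and 282, 306 and 365 CPM in shATF4 libraries (0.49 ± 0.07, adjusted p = 0.00013). NCL, nucleolin, had 993, 1015 and 1051 against 1244, 1267 and 1537 CPM (0.40 ± 0.07, adjusted p = 0.000347). BYSL, a factor of the small subunit, had 62.04, 66.5 and 64.001 against 80.6, 83.8 and 103 CPM (0.47 ± 0.08, adjusted p = 0.00052). All shATF4 values lay above all scramble values for these genes. The count of 11 was 4 when scramble replicate 1 was left out and 5 without scramble replicate 3, and the count of 2 lower was 1 without any 1 library other than shATF4 replicate 1.

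**Figure D4:**
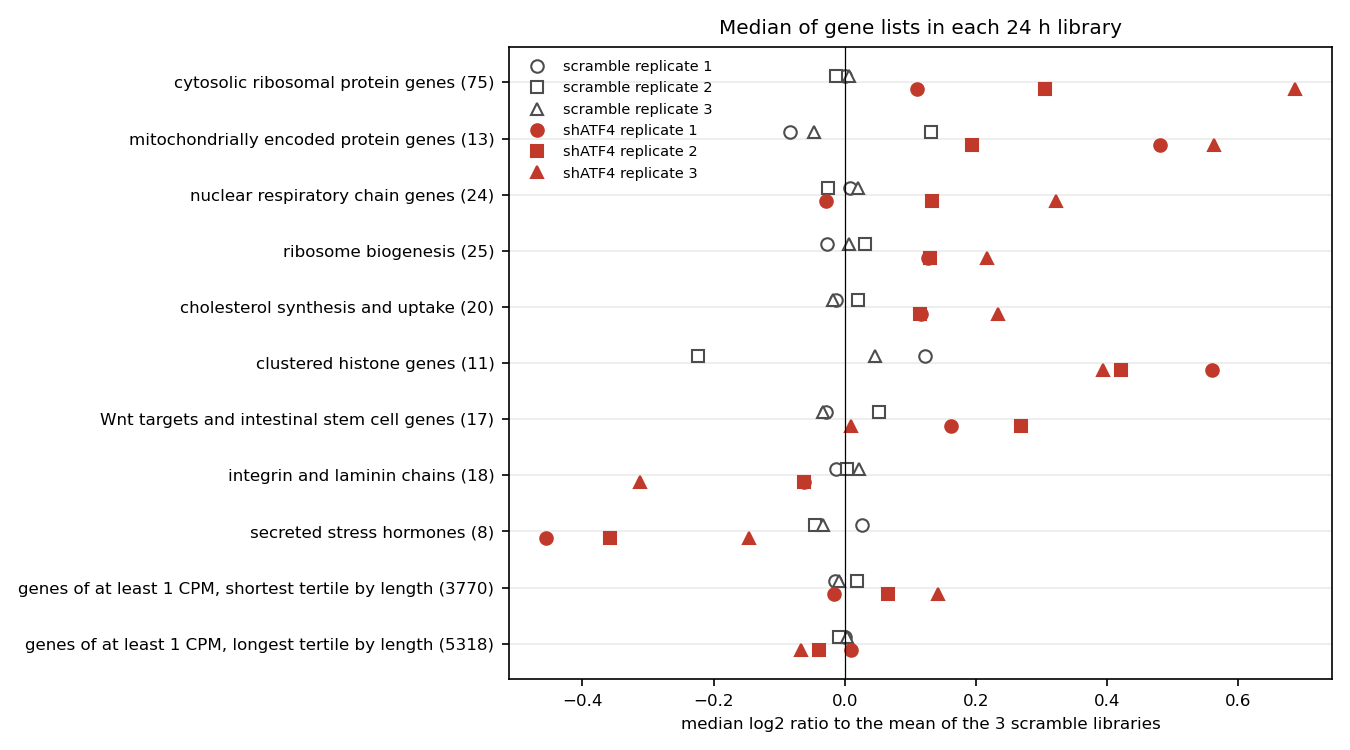
Median log2 ratio of each gene list to the mean of the 3 scramble libraries, for every 24 h library, with scramble as open and shATF4 as filled symbols. The third shATF4 library (filled triangle) is the highest for ribosomal protein genes at 0.69 and the lowest for integrin and laminin chains at -0.31, and genes in the shortest tertile by length show the same order of the 3 shATF4 libraries.

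Genes encoded by the mitochondrial genome had 5 of 13 called, all higher, with a median of 0.45, against -0.42 in untreated cells and -0.16 at 48 h. The untreated median was -0.04 without scramble untreated replicate 2, in which these genes took 1.42% of counts against 0.753% and 0.766% in the other scramble and 0.764% to 0.795% in the shATF4 untreated libraries. MT-ND4L had 121, 139.6 and 121 CPM in scramble and 189, 161 and 416 CPM in shATF4 libraries (1.005 ± 0.24, adjusted p = 0.00504), with the third shATF4 library far above the rest, and its change was 0.46 without that library (adjusted p = 0.0207). The ribosomal RNA gene MT-RNR2 had 7981, 8816 and 8282 CPM in scramble and 11612, 10796 and 13864 CPM in shATF4 libraries (0.53 ± 0.08, adjusted p = 0.0002). It passed without that library too (adjusted p = 0.000153). The count of 5 was 1 without shATF4 replicate 3, without scramble replicate 1 or 3, under DESeq2 and with an offset for gene length, and 2 without scramble replicate 2. It was 12 when scramble untreated replicate 2 was left out of the shared spread. Of 24 nuclear genes of the respiratory chain 3 were called, all higher, beside 10.5% of all genes tested called higher. Each was lost without shATF4 replicate 3 or without any 1 scramble library. Leaving out shATF4 replicate 1 gave 12.

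Cholesterol synthesis and uptake genes had 6 of 20 called, all higher, with a median of 0.16. NSDHL, a sterol dehydrogenase of the pathway, had 24.6, 30.2 and 28.9 CPM in scramble and 30.9, 36.5 and 42.2 CPM in shATF4 libraries (0.39 ± 0.11, adjusted p = 0.012), without overlap, but did not pass without scramble replicate 1 (0.093) or shATF4 replicate 3 (0.0646). The count was 3 when scramble replicate 1 was left out and 2 without scramble replicate 3 or shATF4 replicate 3. Of 18 NRF2 and glutathione genes 2 rose, beside 10.5% of all genes tested called higher. GPX2, a glutathione peroxidase of the gut, had 238, 245 and 237 against 280.1, 315 and 360.3 CPM (0.41 ± 0.08, adjusted p = 0.000988). The other rise, SRXN1, was lost without any 1 library other than shATF4 replicate 3. Of 14 heat shock protein genes 3 rose and 1 fell, beside 10.5% and 9.89% of all genes tested. All 3 rises were lost without scramble replicate 1 or 3, and 1 remained without scramble replicate 2 or shATF4 replicate 3. HSPA1B, the gene that fell, has a near-identical copy, HSPA1A, so its value is uncertain (-0.32 ± 0.09, adjusted p = 0.0118).

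Hypoxia and glycolysis genes had 6 of 23 lower and 4 higher, with a median of -0.09. NDRG1, a stress gene induced by low oxygen, had 8.91, 8.11 and 7.93 CPM in scramble and 3.37, 2.76 and 4.25 CPM in shATF4 libraries (-1.25 ± 0.16, adjusted p = 3.31e-05). PDK1, which holds pyruvate back from mitochondria, had 18.9, 18.4 and 19.1 against 13.3, 10.5 and 7.63 CPM (-0.84 ± 0.14, adjusted p = 0.000408). PFKP, a phosphofructokinase, had 242, 273 and 248 against 183, 176 and 173 CPM (-0.52 ± 0.07, adjusted p = 3.5e-05), and KDM3A, a histone demethylase, stood at -0.49 ± 0.10 (adjusted p = 0.00156). In each of these 4 the groups did not overlap. The 4 rises were 1 without scramble replicate 1, scramble replicate 2 or shATF4 replicate 2, and all were lost without scramble replicate 3.

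Of 18 autophagy and lysosome genes 3 fell and 1 rose, beside 9.89% and 10.5% of all genes tested. CTSB, the lysosomal protease cathepsin B, fell from 263, 282 and 272 to 208, 213 and 223 CPM (-0.34 ± 0.06, adjusted p = 0.000397), and WIPI1, a membrane-binding protein of early autophagosomes, from 5.63, 6.10 and 5.86 to 3.06, 3.52 and 4.25 CPM (-0.69 ± 0.17, adjusted p = 0.00618). The rise was lost without any 1 library other than shATF4 replicate 3. Of 11 drug efflux transporters 1 rose and 2 fell, beside 10.5% and 9.89% of all genes tested. The count of falls was 1 when any 1 library other than shATF4 replicate 1 was left out. ABCB1, the multidrug pump, had 16.1, 13.2 and 15.1 CPM in scramble and 21.3, 17.8 and 18.9 CPM in shATF4 libraries (0.39 ± 0.11, adjusted p = 0.0175), a gene not called without scramble replicate 2 (0.105), scramble replicate 3 (0.0555) or shATF4 replicate 1 (0.0839). Of 11 clustered histone genes 4 were called, all higher, with a median of 0.52 and 2 calls when only the 6 libraries at 24 h were fitted. Of the 4 calls 3 were kept whichever 1 of the 6 libraries was left out, and the other was lost each time. HIST1H2BK had 5.69, 4.90 and 6.63 CPM in scramble and 10.1, 10.6 and 11.1 CPM in shATF4 libraries (0.89 ± 0.13, adjusted p = 0.000108), and HIST1H2AC 2.53, 1.89 and 2.37 against 4.68, 5.81 and 4.25 CPM (1.10 ± 0.16, adjusted p = 0.000106). Histone genes have near-identical copies and mostly lack the poly(A) tail on which the RNA was selected, so these values are uncertain.

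By size of change, protein-coding genes averaging 1 CPM or more, without overlap between the groups, were led among the rises by DEFA5 and F13A1, the clotting factor that cross-links fibrin. F13A1 had 1.90, 1.57 and 1.60 CPM in scramble and 7.36, 5.46 and 8.21 CPM in shATF4 libraries (2.05 ± 0.21, adjusted p = 1.32e-06). OR51B5, an olfactory receptor gene, had 0.747, 0.629 and 0.77 against 2.68, 2.70 and 2.33 CPM (1.83 ± 0.24, adjusted p = 2.91e-05). SGK1, a kinase of salt and hormone responses, had 2.01, 1.70 and 1.54 against 4.62, 4.98 and 4.83 CPM (1.45 ± 0.18, adjusted p = 1.97e-05). FBXW12 (1.83), TCAP (1.496), TMPPE (1.43) and the histone gene HIST1H2AG (1.51) followed, with adjusted p-values of 0.00525, 0.00201, 0.00103 and 0.000181. PGM5 and RAB3A complete the 10, and their calls were lost without scramble replicate 2 (PGM5, 0.0577) and scramble replicate 3 (RAB3A, 0.0509).

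Among the falls SMIM11A was first by size (-2.61, adjusted p = 0.00182), but it has a near-identical copy, its scramble libraries ran from 0.88 to 7.28 CPM, and its value is uncertain. RASSF2, which binds RAS, had 4.14, 3.83 and 4.03 CPM in scramble and 0.936, 1.17 and 0.932 CPM in shATF4 libraries (-1.98 ± 0.23, adjusted p = 7.15e-06). CACNG4, a regulatory calcium channel subunit, was more abundant, with 41.3, 45.7 and 38.2 CPM in scramble and 14.97, 12.7 and 11.6 CPM in shATF4 libraries. No library of either group came near the other group, and the fold was 3.18 (-1.67 ± 0.12, adjusted p = 9.42e-09). ATP2A3, a calcium pump of the endoplasmic reticulum, fell from 18.7, 19.99 and 20.01 to 7.80, 7.33 and 4.66 CPM (-1.58 ± 0.15, adjusted p = 9.1e-07). CREB3L1, a membrane-bound transcription factor of the endoplasmic reticulum, fell to 1.17 CPM or less (-1.64 ± 0.31, adjusted p = 0.000877). KCNC1 (-1.87), TSHZ1 (-1.83), PLA2G4F (-1.74), AC007325.2 (-1.65) and CSGALNACT1 (-1.57) complete the 10, with adjusted p-values from 8.57e-05 to 0.00354.

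The most abundant called genes changed little. ACTG1, cytoplasmic γ-actin, had 2518, 2589 and 2509 CPM in scramble and 2119, 2027 and 1774 CPM in shATF4 libraries (-0.36 ± 0.06, adjusted p = 0.000284). KRT8, the main keratin of simple epithelium, had 4770.0, 5216 and 4798 against 5649, 6152 and 5891 CPM (0.26 ± 0.07, adjusted p = 0.00923), a gene not called without scramble replicate 1 (0.0651) or 3 (0.0598). The other abundant genes called, EEF1A1, ENO1, GAPDH, HSP90AA1 and KRT18, rose by 0.16 to 0.23, and MT-CO2 by 0.53. Each of these 6 calls was lost in at least 3 of the 16 alternatives, and without shATF4 replicate 3 EEF1A1 stood at 0.11 and MT-CO2 at 0.34.

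The drug state was then set beside the others. The 3 knockdown comparisons (untreated, 24 h and 48 h) share no library, while each test of a difference between states uses the 24 h libraries. Of the 1821 genes called higher at 24 h, 99 were also called higher in untreated cells and 174 at 48 h, which is 5.44% and 9.56% of them and 52.9% and 25.7% of the genes called higher in those states. Of the 1712 called lower, 223 were also called lower in untreated cells and 298 at 48 h (13% and 17.4%, and 69.9% and 31.1% of the lists in those states). A gene not called in a state was not thereby shown to be unchanged there. In untreated cells 1153 of the 1821 and 1318 of the 1712 had the same sign, whether called or not. At 48 h 1128 and 1100 did. The difference from untreated cells was itself called for 148 of the 1821 and 182 of the 1712, and that from 48 h for 384 and 483. In all 3 states 41 genes were called higher and 109 lower. Calls in the opposite direction at 48 h were made for 60 of the genes higher and 66 of those lower at 24 h.

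Genes called with the same sign in all 3 states included DEFA5, OR51B5 and RASSF2. CCND2, a cyclin of G1, was scarcely detected in scramble cells at 24 h, with 0.23, 0.189 and 0.296 CPM, and had 1.37, 1.24 and 1.40 CPM in shATF4 libraries (2.45 ± 0.45, adjusted p = 0.000751). SLC14A1, a urea transporter, had 13.1, 12.005 and 13.9 CPM in scramble and 4.93, 5.18 and 5.53 CPM in shATF4 libraries at 24 h (-1.32 ± 0.13, adjusted p = 1.33e-06) and stood at -2.25 at 48 h. SYTL5, a vesicle transport protein, had 10.8, 9.80 and 10.9 against 4.80, 4.22 and 4.60 CPM (-1.20 ± 0.16, adjusted p = 3.31e-05) and stood at -1.38 in untreated cells and -1.84 at 48 h. GGT5 (-2.78), which cleaves glutathione conjugates, and MAP2 (2.79), a microtubule protein, were below 1.5 CPM in all 6 libraries at 24 h. KCNN4 (-1.17) and BCHE (0.91) belong to the same 10 genes, but at 24 h both calls were lost without single libraries, KCNN4 with an adjusted p of 0.111, 0.0909 and 0.0563 when scramble replicate 1, 2 or 3 was left out and of 0.0713 and 0.141 when shATF4 replicate 1 or 2 was. For BCHE the adjusted p was 0.091 (scramble replicate 1 left out), 0.0803 (scramble replicate 2) and 0.0634 (shATF4 replicate 2).

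The test of the difference between the 24 h and the untreated knockdown called 369 genes (2.13%), 164 more positive (0.947%) and 205 more negative (1.18%) at 24 h. This count ran from 65 without shATF4 untreated replicate 2 to 1188 without shATF4 24 h replicate 1, was 678 without shATF4 24 h replicate 3, and moved by over 1.5 times when any 1 of the 12 libraries other than scramble untreated replicates 2 and 3 was left out. HNRNPLL, a splicing regulator, had 60.2, 59.9 and 58.9 CPM in scramble and 35.7, 30.9 and 36.5 CPM in shATF4 libraries at 24 h (-0.80 ± 0.08), while in untreated cells it had 75.1, 69.8 and 75.8 against 69.5, 69.4 and 66.8 CPM (-0.10). The difference was -0.69 ± 0.11 (adjusted p = 0.00651). PSPC1, a paraspeckle protein, had 116, 112 and 109.6 CPM in scramble and 65.3, 64.9 and 63.1 CPM in shATF4 libraries (-0.80 ± 0.06), against -0.20 in untreated cells (difference -0.60 ± 0.08, adjusted p = 0.00651). B4GALT5, a Golgi galactosyltransferase, was lower in untreated shATF4 cells (-0.32) and stood at 0.23 at 24 h, which did not pass without scramble replicate 1 (0.0648) or 3 (0.059) (difference 0.55 ± 0.08, adjusted p = 0.00651). AL365181.2 and AC007406.5, long non-coding genes whose reads may be shared with overlapping genes, stood at -0.47 and -2.24 at 24 h, with differences of -0.98 (adjusted p = 0.00651) and -2.20 (adjusted p = 0.00651). For these 5 genes the difference passed in each of the 19 alternatives.

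The test against the 48 h knockdown called 1481 genes (8.56%), 742 with a positive 48 h minus 24 h difference (4.29%) and 739 with a negative one (4.27%). The count was 969 without scramble 24 h replicate 1 and 592 to 862 without any 1 of the 4 libraries at 48 h. Several 24 h changes were smaller at 48 h. FN1 had 92.03 and 99.2 CPM in scramble and 93.5 and 93.6 CPM in shATF4 libraries at 48 h (-0.03), and the change from 24 h was -1.31 ± 0.12 (adjusted p = 4.44e-06). PHGDH had 61.7 and 63.2 against 61.3 and 67.3 CPM at 48 h (0.04), a change of 1.23 ± 0.13 (adjusted p = 1.48e-05). ASB4, a ubiquitin ligase subunit, had 42.6, 40.6 and 40.4 CPM in scramble and 14.97, 14.9 and 14.97 CPM in shATF4 libraries at 24 h (-1.46 ± 0.08, adjusted p = 9.8e-10) and -0.11 at 48 h (change 1.36 ± 0.13, adjusted p = 5.52e-06). In C1RL and TMEM176A the direction turned. C1RL, a serine protease related to complement, was lower at 24 h, with 21.4, 22.9 and 19.7 against 12.6, 11.1 and 12.6 CPM (-0.82 ± 0.10, adjusted p = 1.97e-05), and higher at 48 h (0.89, adjusted p = 3.44e-05). TMEM176A, a membrane protein, was higher at 24 h (0.40 ± 0.07, adjusted p = 0.000536) and lower at 48 h (-0.72, adjusted p = 1.62e-05). F13A1 stood at -0.56 at 48 h and was not called there (adjusted p = 0.116; change -2.61 ± 0.30, adjusted p = 3.22e-05). KRT81, a hair keratin, kept its sign and went from -0.30 at 24 h, which did not pass without each scramble library or shATF4 replicate 3 (adjusted p of 0.0536, 0.0946, 0.0787 and 0.0829), to -2.22 at 48 h (change -1.92 ± 0.16, adjusted p = 6.36e-07).

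**Figure D5:**
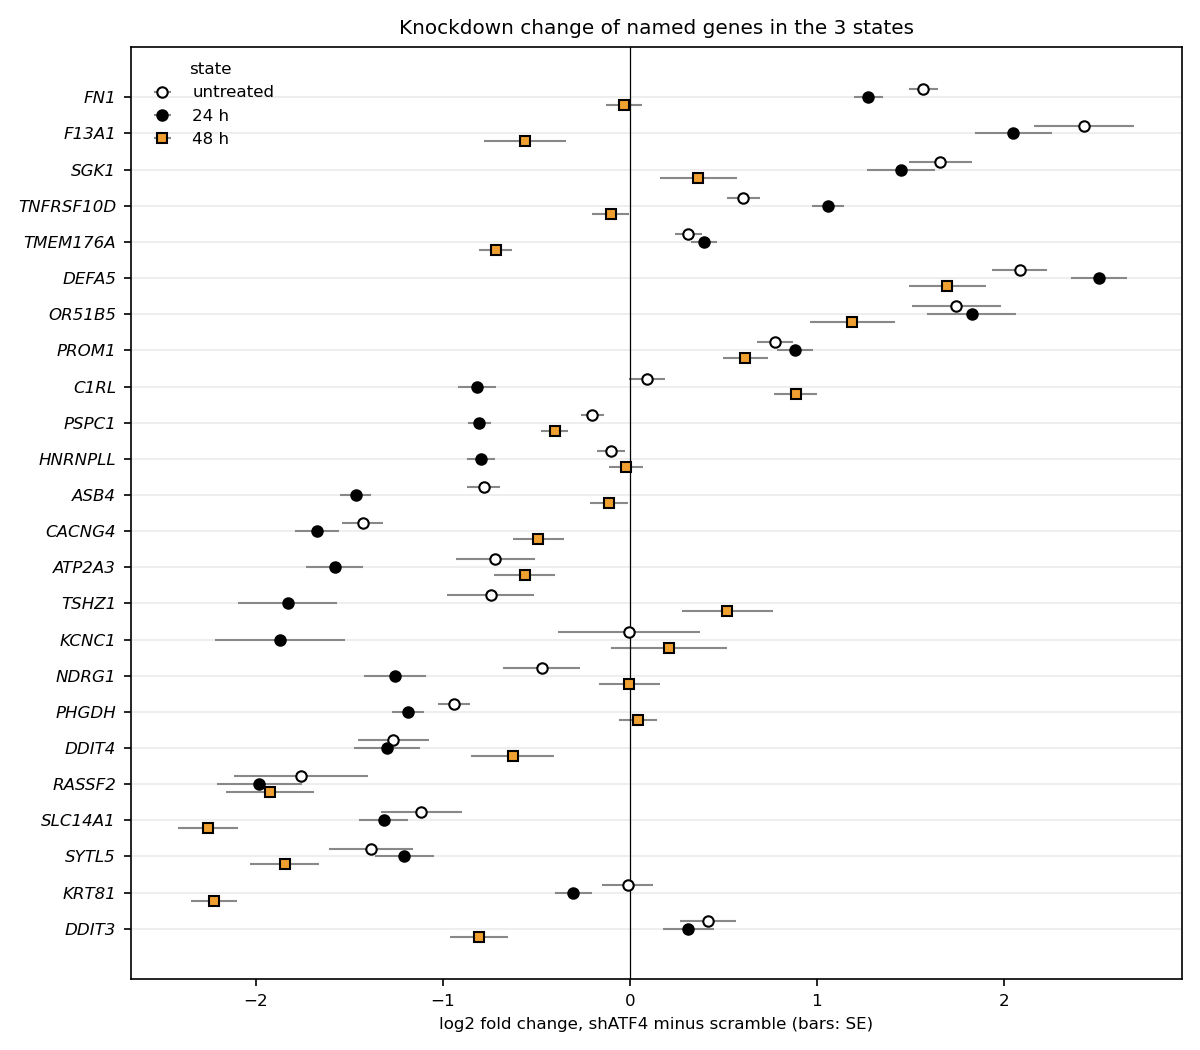
Log2 fold change of shATF4 against scramble, with its SE, for 24 named genes in untreated cells (open circles), at 24 h (black circles) and at 48 h (orange squares). FN1 lies at 1.57, 1.28 and -0.03 in the 3 states, whereas RASSF2 stays between -1.98 and -1.76.

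The calls were not spread evenly by gene length. In the shortest tertile (1 of 3 equal groups by length) 10.6% were called higher and 4.8% lower, and in the longest tertile 10.0% and 14.4%. Among genes of at least 1 CPM the shortest tertile had a median of -0.02, 0.07 and 0.14 against the scramble mean in shATF4 replicates 1, 2 and 3, and the longest tertile 0.01, -0.04 and -0.07. The third shATF4 library had the widest gap between short and long genes. Of 538 processed pseudogenes tested 57 were higher (10.6%, beside 10.5% of all genes) and 8 lower (1.49%, beside 9.89%). By chromosome, 9 of 23 mitochondrial genes were called, all higher (39.1%, beside 10.5% of all genes). On chromosome 18 the counts were 9 higher (3.98%) and 34 lower (15%, beside 9.89%) of 226. Chromosomes 10 (8.9% higher, 14.8% lower) and 13 (5.03% and 12.3%) leaned the same way. Chromosomes 16 (12% and 6.3%) and 19 (13.7% and 6.14%) leaned the other way. The part of length, library and RNA quality in the gene-level results was not tested beyond the values given here.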

How the data were processed

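RNA-seq libraries were made from RNA selected on oligo-dT beads, per the labels' protocols. The authors deposited raw counts per gene, which were used here; the submitters' processing notes name featureCounts 1.5.0-p3 and the build hg38 (GRCh38). As the aligner, annotation release and strand setting were not given in the sources used here, reads of overlapping and antisense genes cannot be told apart. The same table holds the authors' log2 fold changes and adjusted p-values for this contrast (tool not given), per the file headers, and a gene length in bp, recorded as a score, that the authors deposited beside them.

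All 16 libraries (14571611 to 17824188 counts) were fitted with 6 groups by edgeR 4.0.16 in R 4.3.3. Genes passed filterByExpr, libraries were scaled by TMM, contrasts were tested by the quasi-likelihood test with 10 residual degrees of freedom, and p-values were adjusted over 17309 genes by Benjamini-Hochberg. Genes with an adjusted p under 0.05 were called. CPM are on TMM-scaled totals, and the SE is the log2 change over the square root of F. The code was tested on simulated data. Depth limits genes below about 1 CPM.

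Alternatives were other scalings and filters, DESeq2 1.42.0, the 24 h libraries alone, a replicate block, each library left out and, chosen after seeing the data, an offset for gene length and scramble untreated replicate 2 left out of the shared spread. Genes named are ATF4 and 11 others by name, among called protein-coding genes of at least 1 CPM without overlap the 10 that rose most and the 10 that fell most, the 10 called genes with most counts, up to 4 members of each of 38 lists by adjusted p, the 5 with the smallest adjusted p for each difference between states, and the 10 with the largest mean change in all 3 states. TNFRSF10A, MCL1, B2M, CDK1, BUB1B, EIF2AK1, EIF2AK2 and MTHFD1 are also given where they are members of a list. Some genes are not reported here. Members and lists were chosen with earlier results of these data known.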

Additional observations from a re-analysis of the deposited data

Results flagged for a closer look

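For the named genes below the knockdown change at 24 h differed from that in another state by the test of the difference itself (edgeR's quasi-likelihood test of the interaction, Benjamini-Hochberg adjusted over 17309 genes). Values are differences of log2 changes, and no explanation was weighed.

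Against untreated cells, 8 differences passed in each of 19 alternatives. They were MT-RNR2 (0.64), PSPC1 (-0.60), AC007406.5 (-2.20), AL365181.2 (-0.98), HNRNPLL (-0.69), B4GALT5 (0.55), C1RL (-0.91) and ASB4 (-0.68). Of the others, WIPI1 (-1.31), the autophagosome protein, was lost without shATF4 untreated replicate 2, and TNFRSF10B (0.46) without that library or scramble 24 h replicate 3. The remaining differences were each lost without at least 3 single libraries. Among amino acid and stress genes they were GDF15 (0.52), DEPDC5 (-0.56), SLC36A1 (0.55), GARS (-0.43) and CARS (-0.41). Among ribosomal and nucleolar genes they were RPS2 (0.44), RPL13A (0.45), RPL12 (0.70), DKC1 (0.44), NCL (0.43) and BYSL (0.47). MAP3K7 (-0.51), POLA1 (-0.41), UBE2C (0.40), ITGA3 (-0.61), BMP4 (0.46), ENO1 (0.36), MT-ND4L (1.42) and MT-ND1 (1.20) also belong here.

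From 24 h to 48 h, differences that passed in each of 17 alternatives were DDIT3 (-1.12), PHGDH (1.23), FN1 (-1.31), F13A1 (-2.61), KCNC1 (2.08), TSHZ1 (2.35), CACNG4 (1.18), ACTG1 (0.49), AC007406.5 (2.21), AL365181.2 (1.02), HNRNPLL (0.78), KRT81 (-1.92), C1RL (1.70), ASB4 (1.36) and TMEM176A (-1.11). ATP2A3 (1.01) and PSPC1 (0.40) were lost without scramble 48 h replicate 1. MT-RNR2 (-0.55) and KRT18 (-0.37) were lost without scramble 48 h replicate 2 or shATF4 48 h replicate 1, and SLC14A1 (-0.94) without replicate 1 of either 48 h group. VIM (0.50), SGK1 (-1.09), PLA2G4F (1.60) and KRT8 (-0.34) were lost in at least 4 alternatives.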

How the results depend on the processing

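At 24 h the 3533 calls became 2189 in the 24 h libraries alone, 2255 with a replicate block in those libraries, 3973 with a replicate block in all libraries, and 2067 to 3885 with a library left out. Calls of a difference from untreated cells (369) were 798 with no filter, 606 by DESeq2, 644 with a replicate block and 65 to 1188 with a library left out. With a library left out, differences from 48 h (1481) were 592 to 2006, untreated calls (506) 277 to 456 and 48 h calls (1636) 600 to 789, the lone library of a 48 h group being assumed to vary like the others. The share of 24 h calls that were higher was 51.5%, and 46.4% with upper-quartile scaling, 46.3% with median-of-ratios scaling, 45.8% by DESeq2, 55.1% with the length offset and 41.5% without scramble replicate 1.

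Of 198 named genes 170 were called at 24 h. Of these, 115 were kept in all 16 alternatives, 55 were lost in at least 1 and 0 reversed. Among uncalled genes, with a library left out TNF ran from -0.0945 to 0.462 and CHGB from -0.115 to 0.0542, each changing sign without shATF4 replicate 2, and the cause was not tested. Same-numbered libraries deviated together with correlations of 0.012, 0.035 and 0.040 at 24 h, so the numbers were not taken as pairs, although each library correlated best with its own number.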
